A study of Mus musculus with 2 samples.

Results

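R-loop peaks were examined over the genes that write, maintain, read and remove DNA methylation in mouse neural stem/progenitor cells (NSPCs). An R-loop is a stretch of an RNA:DNA hybrid together with the DNA strand that the RNA displaced. The 10 genes were chosen by their symbols in the GENCODE M1 annotation of the mm9 genome: Dnmt1, Dnmt3a, Dnmt3b, Uhrf1, Tet1, Tet2, Tet3, Tdg, Mbd2 and Mbd3. They are 10 of 22367 protein-coding genes on chromosomes 1 to 19, X and Y, and 28 of the 22132 deposited peaks overlapped 1 of them or lay within 2 kb of it.

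The NSPCs were primary cultures from the frontal brain of C57BL/6 mice at postnatal day 7. In DRIP-seq, genomic DNA is cut with restriction enzymes, the S9.6 antibody pulls down RNA:DNA hybrids, and the DNA in them is sequenced. By the study's methods the cells were grown with a low dose of aphidicolin, which inhibits DNA polymerases and slows replication, while the sample labels name no treatment. The series holds 2 samples, the S9.6 precipitate and its input without antibody, both of the same cells, and 1 list of peaks was analysed here. The list holds the position of each peak and no signal, so the depth behind a peak is unknown, no spread between replicates can be given and no difference was tested. A gene with no peak is a gene without a call in this list, and a peak is no measure of how much RNA a gene makes.

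Methylation of cytosine in CpG dinucleotides is set up by the methyltransferases Dnmt3a and Dnmt3b and copied to the daughter strand after replication by Dnmt1, which Uhrf1 brings to hemimethylated DNA. The Tet enzymes oxidise the methyl group, and Tdg cuts out the most oxidised bases so that base excision repair can put back an unmodified cytosine. Mbd2 binds methylated CpGs, and Mbd2 and Mbd3 are alternative subunits of the NuRD complex, which combines histone deacetylase and nucleosome remodelling activities. In the brain, Dnmt3a and the Tet enzymes are known for shaping the methylation of neuronal genes during development.

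R-loop peaks overlapped 8 of the 10 genes, and the same 8 had a peak within 2 kb. Among all protein-coding genes, 39.6% overlapped a peak and 43.1% had a peak within 2 kb. Longer genes offer more room for a peak, and the median length was 51.8 kb in the 10 genes and 15.4 kb in all. Among protein-coding genes no shorter than Mbd3 and no longer than Dnmt3a, between 7.01 and 108 kb, 47.1% overlapped a peak. That range was not matched to the lengths of the 10. Among protein-coding genes of 0.5 to 2 times the length of each member, this share ran from 35.3% for Mbd3 to 58.3% for Dnmt3a. The genes with peaks were the maintenance pair Dnmt1 and Uhrf1, the de novo enzyme Dnmt3a, Tet2, Tet3, Tdg, Mbd2 and Mbd3. Dnmt3b and Tet1 had 0 peaks. Dnmt3a overlapped 11 peaks, Tet3 6, Mbd2 4 and Tet2 2, and Dnmt1, Uhrf1, Tdg and Mbd3 had 1 peak each. Thus 3 genes held at least 4 peaks, a count reached by 4.82% of all protein-coding genes. With 10 genes, a count moves by 10 percentage points for each gene. The paper found few of the genes with peaks to be transcriptionally inactive, and these backgrounds were not matched for transcription.

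The position of the peaks within the genes differed from member to member. The transcription start site (TSS) lay in a peak in Dnmt3a, Uhrf1, Tet3 and Mbd2, 4 of 10 genes, compared to 14.9% of all protein-coding genes. The transcription end site (TES) lay in a peak in Mbd3, 1 of 10 genes, compared to 10.9% of all protein-coding genes. Neither background share was matched for transcription. The other 3 genes with peaks, Dnmt1, Tet2 and Tdg, had them inside the gene and away from both ends.

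**Figure D1:**
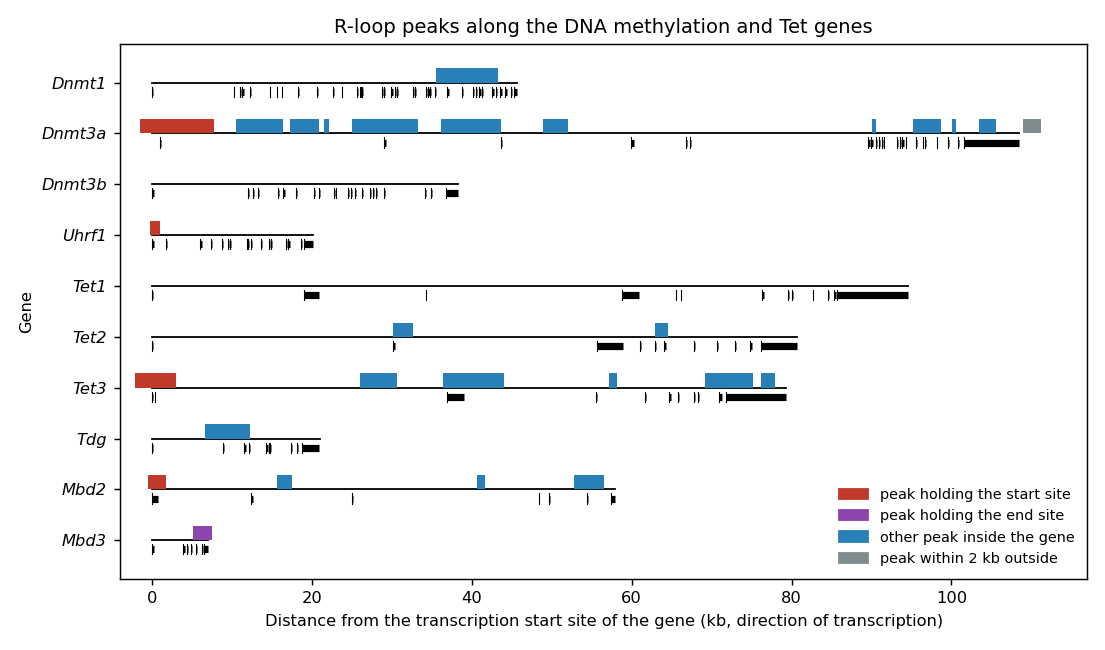
R-loop peaks (coloured boxes) and exons of the longest protein-coding transcript (black boxes below each line) along the 10 genes, drawn to scale in kb from the TSS in the direction of transcription. Dnmt3a and Tet3 carry 18 of the 28 peaks, Dnmt3b and Tet1 carry 0, and the red boxes mark the 4 genes whose TSS lies in a peak.

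Dnmt3a (ENSMUSG00000020661), the de novo methyltransferase that is also abundant in postnatal brain, lies on the plus strand at chr12:3806007-3914443. Its 11 peaks covered 43.2 kb, or 39.8%, of the 108 kb gene. Of the 3652 protein-coding genes between 0.5 and 2 times its length, 58.3% had a peak, 0.986% had as many peaks and 0.849% were covered to as large a share. Without regard to length, 0.362% of all protein-coding genes had as many peaks, whereas 8.10% were covered to as large a share.

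The widest peak of Dnmt3a and of the 28 was 9.23 kb long, chr12:3804548-3813778, and reached from 1.46 kb upstream of the TSS to 7.77 kb downstream. It held exon 1 of the longest protein-coding transcript and 6 annotated transcript starts. Among these was the start of Dnmt3a-001, 1.02 kb inside the gene, where the 500 bp on either side had a GC content of 80.9% and a ratio of observed to expected CpGs of 0.980. At the outermost start of the gene, of a transcript with a retained intron, the same window had a GC content of 57.8% and a ratio of 0.434. Both starts therefore shared 1 peak but lay in different sequence.

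Downstream of this peak, 6 peaks followed up to 52.0 kb from the TSS. They measured 5.92, 3.66, 0.612, 8.16, 7.50 and 3.15 kb in the order of transcription. The peak of 8.16 kb held exon 2, that of 7.50 kb reached 53 bp into exon 3, and the other 4 lay wholly in introns. The next 38.1 kb, from 52.0 to 90.1 kb and 35.1% of the gene, was free of peaks. This stretch held the start of Dnmt3a-201, a shorter protein-coding transcript that begins 85.7 kb into the gene. That start lay 4.38 kb from the nearest peak, and it had a GC content of 62.9%.

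The last part of Dnmt3a, where most of its 23 exons lie, had 4 smaller peaks. A peak of 0.390 kb met exon 8, a peak of 3.46 kb spanned exons 17 to 20, and a peak of 0.408 kb lay in an intron. A peak of 2.13 kb, chr12:3909475-3911600, lay entirely within exon 23, the last exon. A twelfth peak of 2.25 kb, chr12:3914899-3917146, lay beyond the TES but within 500 bp of it. Of the 18 annotated transcripts of Dnmt3a, 7 started in a peak, and 4 of these were among the 13 protein-coding ones.

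The 200 bases upstream of the TSS are shown for Dnmt3a and Dnmt3b, because the TSS lay in a peak in the one and not in the other. They are read from mm9 on the coding strand, at chr12:3805807-3806006 and chr2:153474986-153475185, with each CG dinucleotide in capitals.
Dnmt3a: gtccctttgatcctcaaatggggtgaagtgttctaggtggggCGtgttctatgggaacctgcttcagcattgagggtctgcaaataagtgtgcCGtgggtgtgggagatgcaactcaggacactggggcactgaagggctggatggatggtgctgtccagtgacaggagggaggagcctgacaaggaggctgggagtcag
Dnmt3b: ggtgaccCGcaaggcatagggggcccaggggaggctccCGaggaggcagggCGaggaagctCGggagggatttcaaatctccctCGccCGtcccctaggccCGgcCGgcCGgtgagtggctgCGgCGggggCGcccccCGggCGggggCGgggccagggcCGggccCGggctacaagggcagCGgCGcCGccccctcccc
The window of Dnmt3a lay wholly inside its peak and held 2 CG dinucleotides at a GC content of 56.5%. The window of Dnmt3b lay outside the peaks and held 20 at a GC content of 79.0%. The median over the windows of all 22367 protein-coding genes was 7, and 19.96% of windows held fewer than Dnmt3a and 85.3% fewer than Dnmt3b. The run GGGG was found on the coding strand of both windows, as it was in 58.4% of all windows.

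Dnmt3b (ENSMUSG00000027478), the de novo methyltransferase best known from the early embryo, lies on the plus strand at chr2:153475186-153513466. Its 38.3 kb overlapped 0 peaks, whereas 50.1% of the 6749 protein-coding genes between 0.5 and 2 times its length overlapped at least 1. The nearest peak, chr2:153441023-153444645, overlapped Commd7 and ended 30.5 kb upstream of the TSS. In the other direction the nearest peak overlapped Mapre1, 53.1 kb beyond the TES. The gene therefore sat in a stretch of 122 kb without a peak, and 0 of its 12 transcripts started in one. Its body had a GC content of 47.6%, within the 41.5 to 55.9% of the 8 genes with peaks. Its TSS was CpG-rich, with a GC content of 70.4% and an observed to expected ratio of 0.830 in the 500 bp on either side.

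Dnmt1 (ENSMUSG00000004099), the maintenance methyltransferase, lies on the minus strand at chr9:20711650-20757317. Its only peak, chr9:20713998-20721839, was 7.84 kb wide and covered 17.2% of the gene. It lay 35.5 to 43.3 kb from the TSS and ran from inside exon 27 to past exon 35 of 39. The first 35.5 kb, 77.7% of the gene, was free of peaks. Of protein-coding genes between 0.5 and 2 times its length, 51.6% had a peak and 10.9% were covered to as large a share.

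Uhrf1 (ENSMUSG00000001228), which recognises hemimethylated CpGs and recruits Dnmt1, lies on the plus strand at chr17:56442744-56462909. Its single peak, chr17:56442554-56443791, was of the opposite kind, 1.24 kb wide and placed over the TSS, from 0.190 kb upstream to 1.05 kb downstream. It held 4 of the 7 annotated transcript starts and covered 5.20% of the gene. Its GC content of 62.1% and its observed to expected CpG ratio of 0.790 were the highest of the 28 peaks. The remaining 19.1 kb of Uhrf1 had 0 peaks. The partners in maintenance methylation thus had 1 peak each, at the start of Uhrf1 and toward the end of Dnmt1.

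Tet3 (ENSMUSG00000034832), a methylcytosine dioxygenase, lies on the minus strand at chr6:83312367-83391672. Its 6 peaks covered 24.1 kb, or 30.3%, of the 79.3 kb gene. Among the 4642 protein-coding genes between 0.5 and 2 times its length, 56.9% had a peak, 4.78% had as many peaks and 2.33% were covered to as large a share. The first peak, chr6:83388662-83393725, was 5.06 kb wide, held exons 1 and 2 and reached 2.05 kb upstream of the TSS, where it also overlapped the annotated gene B230319C09Rik. It was the only one of the 28 peaks to overlap a further annotated gene.

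The other peaks of Tet3 were spread to the end of the gene. A peak of 4.60 kb and a peak of 0.973 kb lay in introns, and a peak of 7.66 kb, the widest in the gene, held exon 3. Near the end, a peak of 6.06 kb met exons 10 and 11, and a peak of 1.76 kb, chr6:83313789-83315544, lay wholly within exon 11, the last exon. Dnmt3a and Tet3 thus each had a peak over the TSS, wide peaks along the gene and a peak inside the last exon. Together they held 18 of the 28 peaks and 70.8% of the summed width of these peaks.

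Tet2 (ENSMUSG00000040943), a further dioxygenase, lies on the minus strand at chr3:133126643-133207354 and is 80.7 kb long, close to the length of Tet3. It had 2 peaks, which covered 5.17% of it. The peak of 2.59 kb, chr3:133174646-133177237, lay 30.1 to 32.7 kb from the TSS over exon 2. The peak of 1.58 kb, chr3:133142815-133144392, lay 63.0 to 64.5 kb from the TSS over exons 5 and 6 and had a GC content of 40.7%, the lowest of the 28. Of genes between 0.5 and 2 times the length of Tet2, 33.4% had as many peaks and 23.2% were covered to as large a share. The TSS of Tet2 was CpG-rich, with a GC content of 67.5%, and lay 30.1 kb from the nearest peak.

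Tet1 (ENSMUSG00000047146), the dioxygenase known for its role in pluripotent and germ cells, lies on the minus strand at chr10:62267318-62361866. Its 94.5 kb overlapped 0 peaks, whereas 57.9% of the 4054 protein-coding genes between 0.5 and 2 times its length overlapped at least 1. The nearest peak, 11.9 kb beyond the TES, overlapped Ccar1. On the other side the nearest peak, 116 kb upstream of the TSS, overlapped Hnrnph3 and Rufy2. The stretch without a peak around Tet1 was 223 kb long, and 0 of its 7 transcripts started in a peak. The body had a GC content of 44.0%, again within the range of the genes with peaks. The 500 bp on either side of the outermost TSS had a GC content of 45.6% and an observed to expected CpG ratio of 0.270, both the lowest of the 10 genes. At the start of Tet1-201, 19.1 kb inside the gene, this ratio was 0.631.

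For the other genes with the TSS in a peak, the 200 upstream bases are shown for Uhrf1 and Tet3, at chr17:56442544-56442743 and chr6:83391673-83391872, with Tet1, at chr10:62361867-62362066, as the Tet gene without peaks. Capitals again mark CG dinucleotides on the coding strand of mm9.
Uhrf1: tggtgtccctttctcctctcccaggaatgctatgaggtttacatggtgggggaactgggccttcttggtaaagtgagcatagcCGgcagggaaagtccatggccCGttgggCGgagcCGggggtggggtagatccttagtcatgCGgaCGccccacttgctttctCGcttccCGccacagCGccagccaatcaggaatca
Tet3: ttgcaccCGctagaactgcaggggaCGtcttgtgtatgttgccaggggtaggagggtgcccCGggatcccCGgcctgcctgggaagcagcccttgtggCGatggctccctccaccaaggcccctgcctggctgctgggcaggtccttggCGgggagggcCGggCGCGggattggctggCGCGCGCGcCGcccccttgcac
Tet1: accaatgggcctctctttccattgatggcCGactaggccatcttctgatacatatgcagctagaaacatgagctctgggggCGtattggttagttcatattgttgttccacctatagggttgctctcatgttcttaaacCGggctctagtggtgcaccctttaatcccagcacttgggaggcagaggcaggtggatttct
These windows held 9, 14 and 3 CG dinucleotides, more than in 54.3, 70.0 and 28.2% of all windows. The windows of Tet3 and Uhrf1 lay in the peak over 200 and 190 of their bases. The run GGGG was found in all 3, and CCCC, its complement, in Uhrf1, Tet3 and Dnmt3b and in 59.2% of all windows. The sequence of Mbd2, the remaining gene with its TSS in a peak, is not shown, and the 500 bp on either side of its TSS had a GC content of 64.4% and an observed to expected CpG ratio of 0.830. The printed windows are examples at the outermost starts and do not describe the further starts inside the peaks, such as that of Dnmt3a-001.

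Tdg (ENSMUSG00000034674), the glycosylase that removes oxidised methylcytosine, lies on the plus strand at chr10:82092573-82113544. Its single peak, chr10:82099200-82104851, was 5.65 kb wide and covered 27.0% of the 21.0 kb gene. It spanned exons 2 to 4 of 10 and held the start of 1 of the 8 transcripts, the processed transcript Tdg-005. The CpG-rich TSS lay 6.63 kb before the peak. Of genes between 0.5 and 2 times the length of Tdg, 45.6% had a peak and 12.0% were covered to as large a share.

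Mbd2 (ENSMUSG00000024513), the reader of methylated CpGs, lies on the plus strand at chr18:70727843-70785785. Its 4 peaks covered 14.6% of the 57.9 kb gene. The first, of 2.24 kb, ran from 0.465 kb upstream to 1.78 kb downstream of the TSS and held the starts of all 3 protein-coding transcripts. Peaks of 1.93 and 1 kb lay in introns 15.7 and 40.7 kb from the TSS, and a peak of 3.75 kb held exon 6 of 7. Of protein-coding genes between 0.5 and 2 times its length, 9.99% had as many peaks and 10.9% were covered to as large a share.

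Mbd3 (ENSMUSG00000035478), whose mammalian protein binds methylated CpGs poorly, lies on the minus strand at chr10:79855284-79862295 and is the shortest of the 10 genes, with 7.01 kb. Its single peak, chr10:79854815-79857122, was 2.31 kb wide, spanned exons 5 to 7 of 7 and ran past the TES. It covered 26.2% of the gene, a share reached by 21.2% of protein-coding genes between 0.5 and 2 times its length. All 5 protein-coding transcripts of Mbd3 ended in the peak, and 0 of the 6 transcripts started in it. The alternative NuRD subunits thus differed at both ends, with a peak over the start of Mbd2 and over the end of Mbd3.

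Over all 10 genes, peaks covered 17.4% of the summed length of 553 kb, compared to 3.81% of the summed length of all protein-coding genes. Dnmt3a carried much of this cover, and without it the share was 11.9%. The share over all protein-coding genes is weighted by length and includes genes longer than Dnmt3a. It was matched neither to the lengths of the 10 nor for transcription. By cover, the order was Dnmt3a at 39.8%, Tet3 at 30.3%, Tdg at 27.0%, Mbd3 at 26.2%, Dnmt1 at 17.2%, Mbd2 at 14.6%, Uhrf1 at 5.20% and Tet2 at 5.17%, followed by Dnmt3b and Tet1 at 0. With 1 list there is no spread by which neighbours in this order could be told apart.

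**Figure D2:**
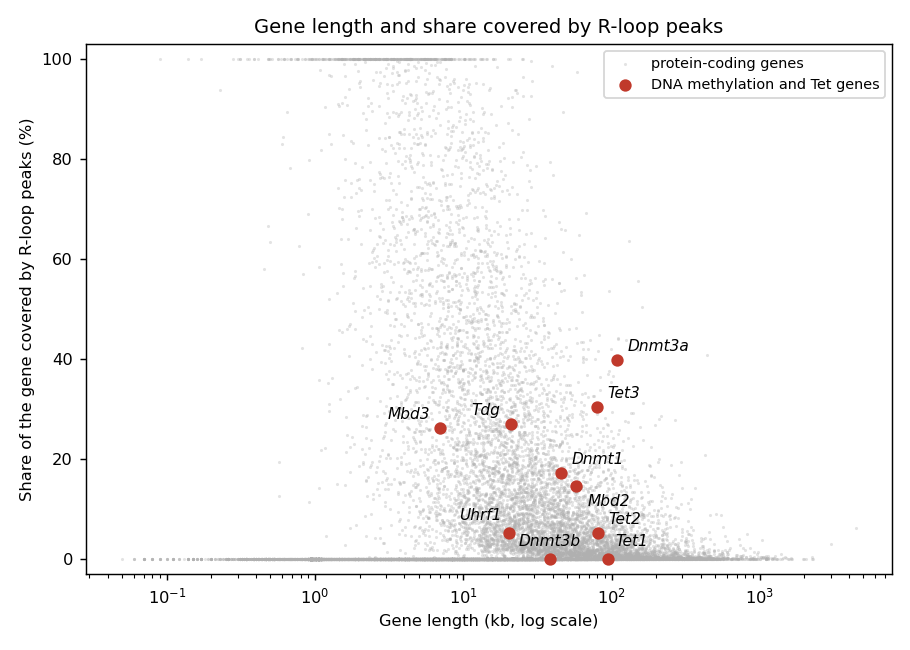
Share of each gene covered by R-loop peaks (%) against gene length (kb, log scale) for the 22367 protein-coding genes (grey) and the 10 genes described (red). Dnmt3a and Tet3, at 39.8 and 30.3%, lie toward the upper edge of the cloud at their lengths, and Dnmt3b and Tet1 lie at 0.

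The 28 peaks were wider than most in the list. Their median width was 2.87 kb, from 0.390 to 9.23 kb, compared to 1.32 kb for all peaks, and 22 of the 28 lay above that median. A width of at least 5 kb was reached by 9 of the 28, or 32.1%, and by 9.85% of all peaks. These 9 were the peak of Dnmt1, the peak of Tdg, 4 of Dnmt3a and 3 of Tet3. Peaks of 1 gene share their sequence and transcription unit, so these counts describe 8 genes more than 28 separate regions. Without the peaks of Dnmt3a the median width was 2.45 kb.

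The GC content of the 28 peaks had a median of 50.6%, from 40.7 to 62.1%, compared to 48.7% for all peaks, with 18 of the 28 above that median. The 5 peaks highest in GC were those over an end of the gene, with 62.1% at the TSS of Uhrf1, 59.2% at that of Dnmt3a, 58.0% at that of Mbd2, 57.5% at the TES of Mbd3 and 55.6% at the TSS of Tet3. The median observed to expected CpG ratio was 0.208 in the 28 peaks and 0.213 in all peaks, so by this measure they were close to the list as a whole.

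**Figure D3:**
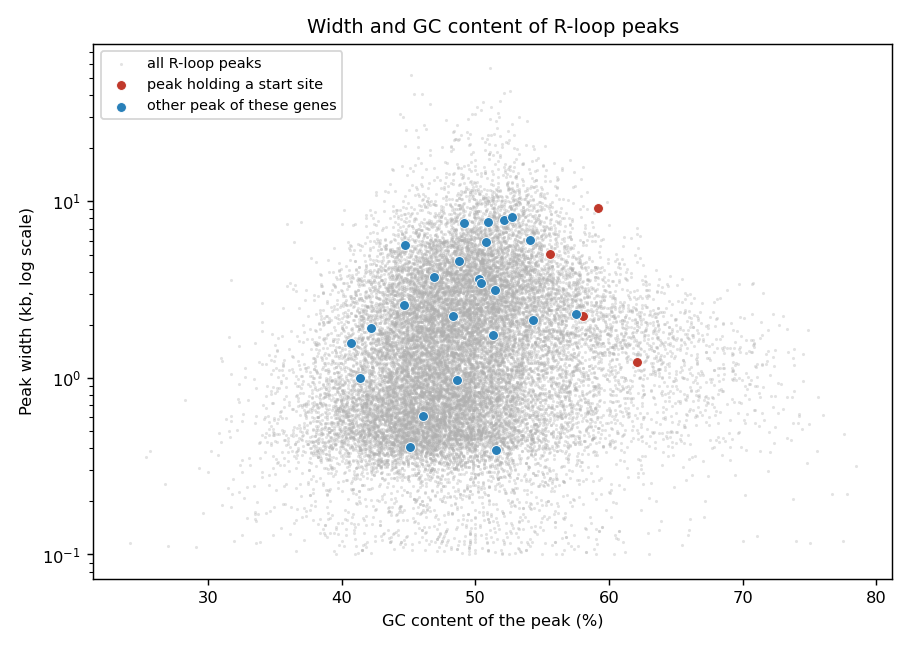
Width (kb, log scale) against GC content (%) of all 22132 R-loop peaks (grey), of the 4 peaks that hold the TSS of one of the 10 genes (red) and of their other 24 peaks (blue). The red points lie between 55.6 and 62.1% GC, and the widest of them is the 9.23 kb peak of Dnmt3a.

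R-loops are known to be favoured where the displaced, coding strand is rich in G. GC skew, the difference of G and C divided by their sum on the coding strand, was above 0 in 25 of the 28 peaks, or 89.3%, compared to 66.1% of the 14917 peaks that overlap 1 protein-coding gene. The median skew was 0.07 in the 28 peaks and 0.04 in that background. Of the 3 other peaks, 2 were in Dnmt3a, the 7.50 kb peak that reached into exon 3, at -0.08, and the 0.408 kb intronic peak, at -0.21. The third was the peak of Tet2 over exons 5 and 6, with 321 G and 321 C. The largest values were in the intronic peaks of Mbd2, at 0.30 and 0.23, and in the exon 2 peak of Tet2, at 0.20. Over the first 1 kb after the TSS the skew was 0.24 in Mbd2, 0.23 in Tet3, 0.16 in Dnmt3a and 0.04 in Uhrf1, the genes with the TSS in a peak. It was 0.13 in Mbd3, 0.07 in Dnmt3b, 0.06 in Tdg, -0.004 in Tet1, -0.02 in Dnmt1 and -0.06 in Tet2, where the TSS lay outside the peaks. These ranges overlapped through Uhrf1.

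To show what such sequence looks like, the 60 bases of the coding strand in which G most outnumbers C were read from mm9. They were sought within the widest peak of 7 genes, outside annotated untranslated regions, and runs of at least 3 G are in capitals. Mbd2 was left out. The windows were picked for this excess, so it is a description only.
Dnmt1, chr9:20717598-20717657: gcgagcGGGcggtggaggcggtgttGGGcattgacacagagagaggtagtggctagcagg
Dnmt3a, chr12:3812075-3812134: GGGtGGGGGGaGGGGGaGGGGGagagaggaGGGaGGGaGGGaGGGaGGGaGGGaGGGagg
Uhrf1, chr17:56443669-56443728: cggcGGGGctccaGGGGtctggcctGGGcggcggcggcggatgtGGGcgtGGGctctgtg
Tet2, chr3:133175917-133175976: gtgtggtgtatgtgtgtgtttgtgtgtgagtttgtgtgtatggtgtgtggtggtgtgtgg
Tet3, chr6:83349956-83350015: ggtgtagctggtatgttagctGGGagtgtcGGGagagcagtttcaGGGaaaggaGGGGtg
Tdg, chr10:82102038-82102097: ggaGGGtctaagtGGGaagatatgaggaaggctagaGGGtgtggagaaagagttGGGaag
Mbd3, chr10:79855848-79855907: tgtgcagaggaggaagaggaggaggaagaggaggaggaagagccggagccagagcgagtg
The window of Dnmt3a, in the intron after exon 1, had 46 G and 0 C, in a chain of G runs separated mostly by single bases. That of Tet2 had 29 G and 0 C and no run of 3 G, since its G bases mostly alternate with T. The windows of Dnmt1, Uhrf1, Tet3 and Tdg had 30, 33, 29 and 29 G and 9, 15, 5 and 2 C, and that of Mbd3, inside exon 6, had 31 G and 6 C. Of these windows only that of Mbd3 met an exon, and the untranslated parts of exons had been left out of the search.

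Peaks over the start were found at CpG-rich and at other starts among the 10 genes. A TSS was called CpG-rich when the 500 bp on either side had a GC content above 55% and an observed to expected CpG ratio above 0.65. By this definition Dnmt3b, Tet2, Tdg, Mbd2 and Mbd3 had CpG-rich starts, 5 of 10 genes compared to 34.9% of all protein-coding genes. Of these 5, only Mbd2 had its TSS in a peak, and of all CpG-rich starts 29.5% lay in a peak. With 5 genes, the count cannot be told apart from that share. Dnmt3a, Uhrf1 and Tet3 had their TSS in a peak without meeting the definition at the outermost start, as did 7.00% of all other starts. In Dnmt3a and Uhrf1 the peak also held further starts inside the gene with higher CpG ratios, of up to 0.989 at Dnmt3a-008 and 0.839 at Uhrf1-003.

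Because the DNA had been cut with EcoRI, HindIII, BsrGI, SspI and XbaI before precipitation, the spacing of their sites limits how sharply a peak can end. The 10 genes had from 8.88 sites per 10 kb in Dnmt3b to 19.7 in Mbd2. Tet1, with 13.5 sites per 10 kb, lay inside the 9.42 to 19.7 of the genes with peaks, and Dnmt3b lay just below. Of the 56 edges of the 28 peaks, 18, or 32.1%, lay within 100 bp of a site, compared to 28.7% of all peak edges. A peak without any site inside was found 10 times among the 28, or 35.7%, compared to 52.6% of all peaks. This comparison was not matched for width, and the median width was 2.87 kb in the 28 and 1.32 kb in all peaks. The share of peak positions set by the digestion was not tested.

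Other genes of the pathway were counted from a list of 63 that includes the 10. Of these, 49 overlapped a peak, or 77.8%, beside the 39.6% of all protein-coding genes. Without the 10 genes it was 41 of 53, or 77.4%. The list was chosen with earlier results of these data known, so its share lends no support to that of the 10 genes. The median length was 25.3 kb in the list and 15.4 kb in all protein-coding genes. Of protein-coding genes between 7.01 and 108 kb, 47.1% overlapped a peak. The background was matched to the list neither for length nor for transcription. The TSS lay in a peak in 23 of 63, or 36.5%, and the TES in 13 of 63, or 20.6%, beside 14.9% and 10.9% of all protein-coding genes. Among methyltransferases and their partners, 6 of 10 genes had a peak, and beside Dnmt3b the genes without one were the Dnmt3 cofactor Dnmt3l, the tRNA methyltransferase Trdmt1 and the replication clamp Pcna. Dnmt3a had both the most peaks and the largest cover in this class.

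In the class of Tet enzymes and demethylation, 18 of 22 genes had a peak. Tet3 shared the highest count, 6 peaks, with the DNA break sensor Parp1, which was covered to 32.8%. The short genes Apex1, encoding the abasic site endonuclease, Gadd45a and Gadd45g were covered over their whole length by 1 peak each. Tet1, the glycosylase genes Mbd4 and Neil2, and Ogt, whose product is a partner of Tet proteins, had 0 peaks. In the class of methyl-CpG readers and related genes, which also holds the poor binder Mbd3, 8 of 9 genes had a peak. The most peaks were in Mbd2, the largest cover, 100%, was in Mbd6, and Zbtb33, which encodes Kaiso, had 0 peaks. Binding of methylated CpGs was not checked for each gene of this class.

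Among the NuRD partners of Mbd2 and Mbd3, 11 of 13 genes had a peak and Mta3 and Gatad2b had 0. No gene of this class had more than 2 peaks, fewer than Mbd2, while Mta2, a scaffold subunit, was covered to 95.9%. In methyl donor metabolism, 6 of 9 genes had a peak. Shmt2, the mitochondrial serine hydroxymethyltransferase, had 4 peaks over 61.2% of its 5.30 kb, and Mat2b, Mtrr and Shmt1 had 0.

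**Figure D4:**
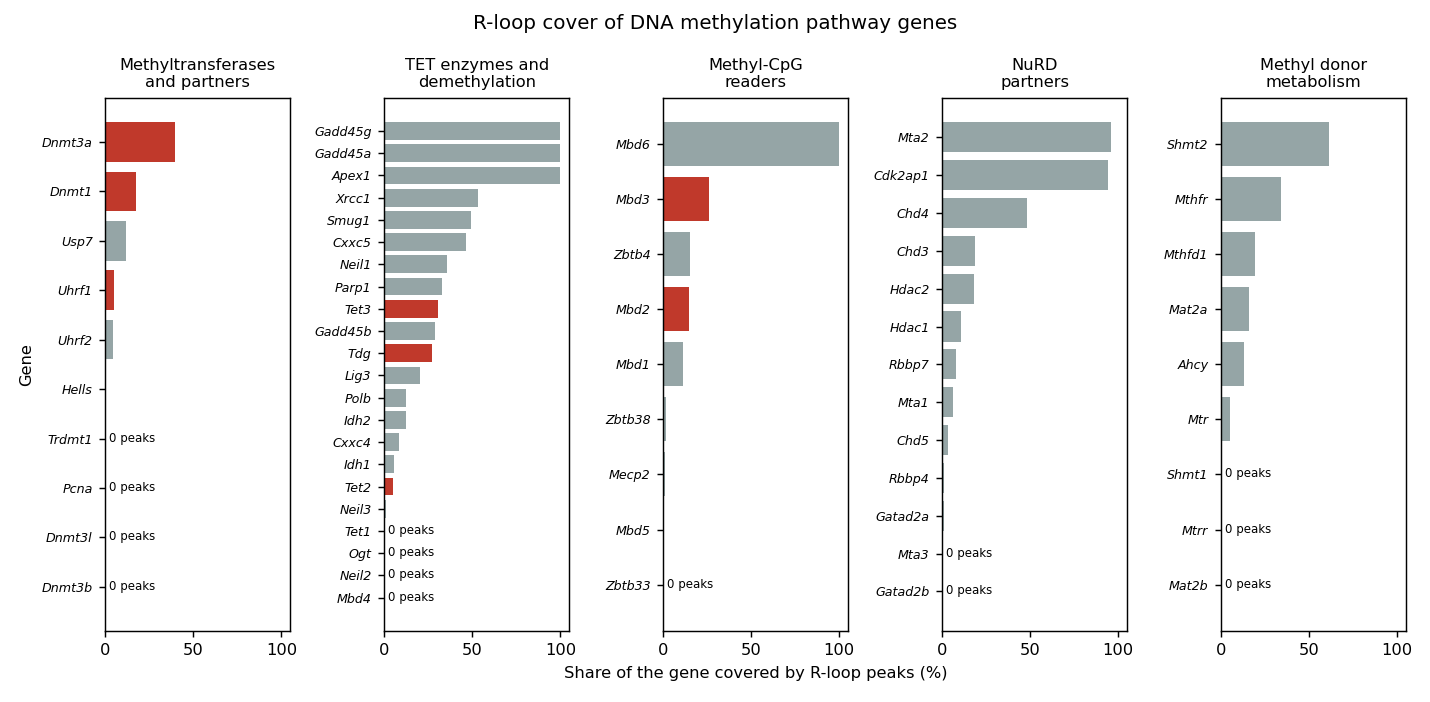
Share of each gene covered by R-loop peaks (%) for the 63 genes of the wider list, by class, with the 10 genes described in red and genes without a peak marked. Dnmt3a leads its class at 39.8%, while Apex1, Gadd45a, Gadd45g and Mbd6, the longest of them Mbd6 at 7.06 kb, reach 100%.

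Marker genes of the labelled cell type and of others were also counted. Of 12 markers of neural stem and progenitor cells, 9 overlapped a peak, and Pax6, Fabp7 and Hes5 did not. Among pluripotency and neuronal markers, 0 of 5 and 0 of 4 did. Of microglial and endothelial markers, 2 of 5 and 1 of 4 overlapped a peak, with 39.6% among all protein-coding genes. Since a peak does not measure expression, these counts describe the list and not the cell type or the purity of the culture.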

How the data were processed

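DRIP-seq of primary NSPCs was analysed from the 1 peak list the authors deposited, whose values are peak positions in base pairs and which gives no count, signal or score. Reads had been trimmed with Trim Galore 0.6.6 (named in the submitters' processing notes), aligned to mm9, freed of duplicates and passed to a Hidden Markov Model peak caller. The aligner, and the rule that joined the replicates into 1 list, are not given in the sources used here. The input has no value here. Depth is unknown, and no test was made.

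Peak starts were converted to count from 1. Peaks were compared with GENCODE M1 gene limits on mm9 at an overlap of at least 1 bp, in Python 3.11.15 with numpy 2.4.6, scipy 1.17.1 and matplotlib 3.10.9. The overlap step was tested on simulated peaks, some placed outside the gene, and gave the known answer in 200 of 200 cases. Sequence measures were read from mm9, and exons from the longest protein-coding transcript.

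The 10 genes, the wider list and the markers were chosen with earlier results of these data known. A gene of the wider list was left out of it after the counts were made, for a reason unrelated to its values, and is not reported here. Described were all 10 genes, genes sharing their peaks and, per class of the wider list, the gene with most peaks, the gene with most cover and, where at most 4, those without a peak within 2 kb. Commd7, Mapre1, Ccar1, Hnrnph3 and Rufy2 fall outside this rule and were named for the nearest peaks, and Gadd45a, Gadd45g and Apex1 tie for most cover. Alternatives were the peak midpoint or 50% of a peak inside the gene, limits widened by 2 kb or taken from transcripts, sites within 500 bp, peaks of at least 1 kb, and peaks closer than 1 kb merged.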

Additional observations from a re-analysis of the deposited data

How the results depend on the processing

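Of 28 values of the summary counts and medians under alternative settings, 26 stayed within the limits set for them. These were 1.5 times the reported count or, for a median, its 95% confidence interval. That interval treats the peaks as independent, although several share a gene. The number of genes with the TES in a peak rose from 1 to 2 when any annotated protein-coding transcript counted, which added Tet3, and to 2 when a site within 500 bp of a peak counted, which added Dnmt3a. The 8 genes with a peak and the 4 with the TSS in a peak kept these counts under each alternative run for them. Pathway genes with a peak numbered between 41, with peaks of at least 1 kb, and 49. Peaks in Dnmt3a numbered 8 with peaks of at least 1 kb, 9 after merging and 12 with limits widened by 2 kb, and the median width lay between 2.45 and 3.56 kb. The lower of these left out the peaks of Dnmt3a, an alternative chosen after seeing the data. No paired analysis was possible because the labels give no replicate numbers and the result comes from no test. With 1 list, neither the spread between cultures nor the depth behind a missing peak can be given.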
